A study of Mus musculus with 11 samples.

Results

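Alkal2 encodes a secreted ligand of the receptor tyrosine kinase ALK, and it was examined here with Alk, the related receptor gene Ltk, and Ptn and Mdk, which encode the growth factors pleiotrophin and midkine. The set holds 5 of the 55401 genes in the deposited tables, matched by gene name. It was drawn up because Alkal2 stood far higher in tumour-bearing than in sham mice in these same libraries. The other 4 genes were listed as its receptors and as further reported ALK ligands. The difference between tumour-bearing and sham mice is therefore given for the 5 genes as a description, without a p-value. Where the outcome of a test of this difference is mentioned for them, it too is only a description.

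The libraries came from mouse trigeminal ganglion neurons, which carry sensation from the head, labelled from their endings with the retrograde dye DiI and sorted by fluorescence. Neurons of both ganglia were collected, and poly(A) RNA was sequenced. One arm carried tumours of MOC1, a cell line from a squamous carcinoma of the mouse mouth (3 female and 3 male libraries), and the other was sham (3 female and 2 male libraries). The labels give DiI for the sham arm too, and they give no strain, age or interval after tumour implantation for any group. Whether a library holds the neurons of 1 animal is not stated there, so errors and p-values below measure the spread between libraries.

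In their best-known pathway, ALKAL2 and its relative ALKAL1 bind the outer part of ALK or LTK and switch on the kinase inside the cell. Adaptors such as SHC, FRS2 and IRS1 then couple the receptor to the RAS-MAPK, PI3K-AKT and STAT3 routes. Pleiotrophin and midkine are heparin-binding growth factors that were first reported as ALK ligands and also act through the phosphatase receptor PTPRZ1, syndecans and integrins. In sensory ganglia Alkal2 has been described in nociceptors, the neurons that sense painful stimuli, and has been linked to persistent pain in mice.

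Gene positions are those of the deposited files (GRCm38). Alkal2 lies on chromosome 12 (30884322 to 30893854), Alk on chromosome 17 (71868972 to 72604627) and Ptn on chromosome 6 (36714929 to 36810220). Ltk (119751320 to 119760431) and Mdk (91929805 to 91932297) both lie on chromosome 2. The DNA just before the start of Alkal2 and of Ptn is shown here because these were the ligands with the most counts among those that stood higher and lower with the tumour. Of the 5 genes, 4 had a promoter entry in the RefSeq sequences used (GRCm38.p6), and Mdk was without one. The Alkal2 stretch is chr12:30884074-30884321 on the plus strand (248 bases) and the Ptn stretch is chr6:36810221-36810429 on the minus strand (209 bases). Both run 5′ to 3′ and end at the annotated start of the gene in the files, so that no transcribed base is included. Capitals mark TGACG, the core of the cyclic AMP response element, where it was found on either strand.
Alkal2: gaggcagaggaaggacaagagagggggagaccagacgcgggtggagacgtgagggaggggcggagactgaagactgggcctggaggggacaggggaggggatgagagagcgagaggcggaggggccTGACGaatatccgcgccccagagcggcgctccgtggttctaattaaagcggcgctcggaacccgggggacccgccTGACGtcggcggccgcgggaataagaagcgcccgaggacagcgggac
Ptn: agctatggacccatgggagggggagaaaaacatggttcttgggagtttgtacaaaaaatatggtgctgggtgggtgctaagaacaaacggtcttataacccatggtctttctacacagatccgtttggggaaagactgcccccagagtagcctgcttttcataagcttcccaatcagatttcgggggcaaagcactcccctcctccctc

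The Alkal2 stretch held 2 matches of TGACG, starting 122 and 47 bases before the gene, and the Ptn stretch held 0. Among 32851 RefSeq promoters, 17.8% held at least 1 such core in the 250 bases before the start. The full element TGACGTCA, which holds the core on both strands, was found in neither stretch and in 1.55% of all promoters. The AP-1 motif TGANTCA (6.75% of all promoters) and the TATA box motif TATAAA (12.4%) were in neither stretch. The GC box motif GGGCGG (32.7%) occurred 1 time in the Alkal2 stretch, 191 bases before the gene. All motifs were searched on both strands and were chosen after the sequences had been seen. A match describes the letters and is not evidence of binding.

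Total counts in genes ranged from 10757426 to 16703797 per library. Of the 5 genes, 4 passed the low-count filter that left 16817 genes for testing, and Ltk did not. Pan-neuronal markers were high in every library, with a sum of 14300 to 16290 counts per 1000000 gene counts (CPM) in the MOC1 arm and 11300 to 14030 CPM in the sham arm, and all 20 of their genes were detected in both arms. Transcripts of satellite glia, which sheathe the cell bodies of these neurons, were present as well. Their 12 markers summed to 3307 to 5774 CPM in MOC1 libraries and 8553 to 10510 CPM in sham libraries. Fibroblast markers summed to 59.8 to 71.8 CPM and 90.2 to 179 CPM in the same order. Schwann cell markers summed to 2134 to 2281 CPM and 2126 to 2318 CPM. At an adjusted p under 0.05 (edgeR), 10 of the 12 satellite glia markers were lower in MOC1, against 4.28% of all genes tested. Of the 20 pan-neuronal markers 10 were higher, against 2.34% of all genes tested. Squamous epithelium and tumour markers summed to at most 10.3 CPM in any MOC1 library and 7.43 CPM in any sham library, with 5 and 6 of 9 genes at 0 throughout the arm. In bulk libraries of this kind, fewer cells of a type and less RNA per cell cannot be told apart. An earlier analysis found sham female 1, MOC1 female 3 and MOC1 male 2 to stand apart, so the log2 differences and sex terms of the 5 genes are also given without these 3 libraries where they change by more than 1.5 times or in sign.

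Alkal2 was the ligand that stood higher with the tumour. Levels are CPM after TMM scaling, which evens out differences in library composition. In MOC1 females Alkal2 stood at 35.1, 24.3 and 30.2 CPM in libraries 1, 2 and 3, and in MOC1 males at 43.4, 36.5 and 33.5 CPM. In sham females Alkal2 stood at 8.82, 7.16 and 7.44 CPM, and in sham males at 10.4 and 6.01 CPM in libraries 1 and 3. The lowest MOC1 library lay more than 2 times above the highest sham library, so the arms did not overlap. No overlap with MOC1 higher was seen for 2.15% of all genes tested. Alkal2 averaged 33.8 ± 6.39 CPM over the 6 MOC1 libraries and 7.97 ± 1.70 CPM over the 5 sham libraries (± is SD for levels), a difference of 2.05 ± 0.20 (SE) on the log2 scale. At an adjusted p under 0.05, which is what called means here, the edgeR test called 1 of the 4 filtered genes higher (Alkal2) and 2 lower (Ptn and Mdk), against 2.34% of all genes tested called higher and 4.28% called lower. Since the set was chosen on this contrast, nothing is read from that count.

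**Figure D1:**
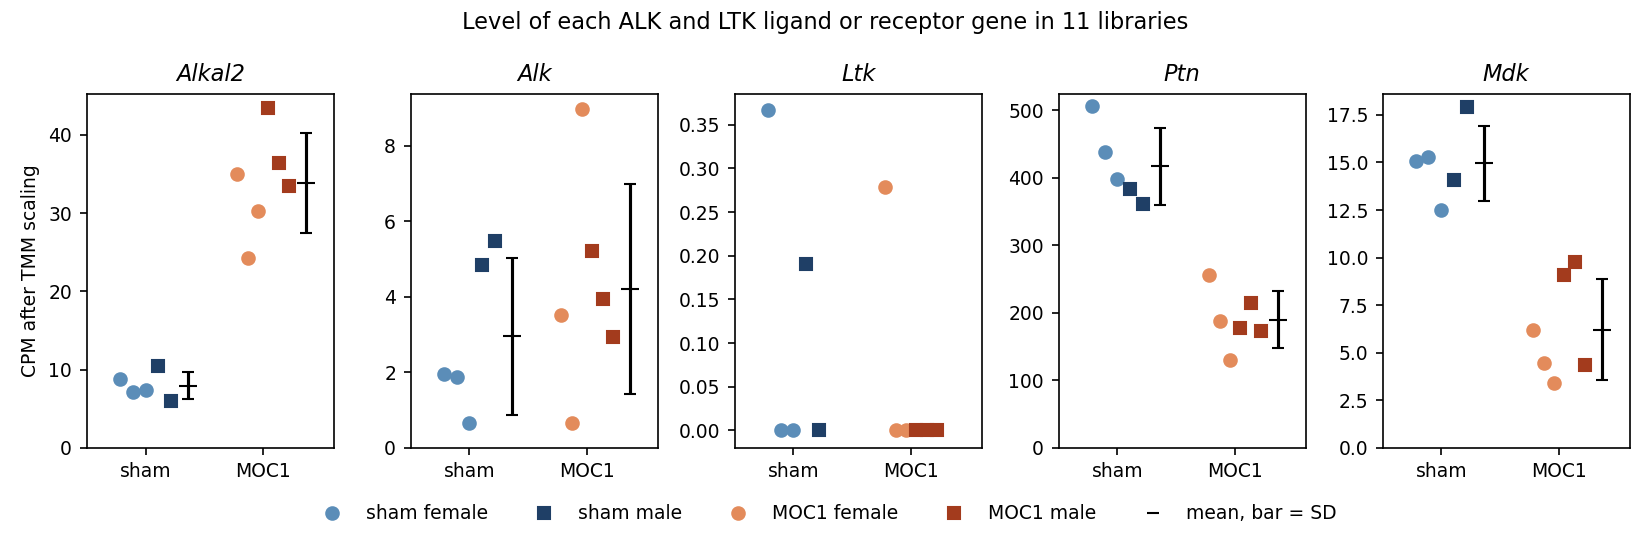
CPM after TMM scaling (y axis, from 0) of Alkal2, Alk, Ltk, Ptn and Mdk in the 5 sham and 6 MOC1 libraries (x axis), with circles for females and squares for males. Horizontal marks are arm means with SD bars, left out for Ltk, whose libraries are mostly at 0; the MOC1 libraries lie above all sham libraries for Alkal2, below them for Ptn and Mdk, and among them for Alk.

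The higher level of Alkal2 was present in both sexes. The log2 difference was 1.93 ± 0.27 (SE) in females and 2.20 ± 0.31 in males. A test of the difference between the sexes, which the choice of genes did not use, gave an interaction of -0.27 ± 0.39 for Alkal2 (95% interval -1.09 to 0.55, adjusted p = 0.9999, edgeR). It was -0.72 without sham male 1 and 0.077 without sham male 3, so its sign rests on the 2 sham males. Across both arms Alkal2 was 0.23 lower in females than in males on the log2 scale (-0.23 ± 0.19, adjusted p = 1, edgeR), where 0.0416% of all genes tested differed by sex. The interaction called 0 genes in edgeR (0%) and 0 in DESeq2, with 708 and 760 genes at an unadjusted p under 0.05.

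Ratios within a library do not depend on how libraries are scaled to each other. Alkal2 had 14.6 to 30.1 counts per 10000 counts of the pan-neuronal markers in MOC1 libraries and 4.58 to 7.78 in sham libraries. Per 10000 counts of 7 peptidergic nociceptor markers, such as Calca and Trpv1, the Alkal2 ranges were 79.3 to 133 in MOC1 and 26.7 to 42.9 in sham. Per 10000 counts of 7 nonpeptidergic markers, such as Mrgprd, the Alkal2 ranges were 235 to 402 in MOC1 and 67.1 to 116 in sham. The 2 arms of Alkal2 stayed apart by each of these 3 yardsticks. With libraries scaled to the pan-neuronal list the Alkal2 difference was 1.78 ± 0.22, and with the satellite glia level as a covariate it was 2.22 ± 0.52. The covariate fit called 0 of all 16817 genes in edgeR (1202 at an unadjusted p under 0.05), so Alkal2 was not called in it either.

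Alkal1, which encodes the other known ligand of ALK and LTK, was not detected. It had 0 counts in all 11 libraries, which allows at most 0.180 to 0.279 CPM per library (3 counts of each library's total, counting error only).

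Alk, the receptor of ALKAL2, was present at a low and uneven level. In MOC1 females Alk stood at 3.53, 0.666 and 8.97 CPM in libraries 1 to 3, and in MOC1 males at 5.21, 3.94 and 2.93 CPM. In sham females Alk stood at 1.96, 1.87 and 0.650 CPM, and in sham males at 4.83 and 5.47 CPM. These levels rest on 10 to 122 counts per library. The arms overlapped over most of their range, and the highest and the next-to-lowest of the 11 values both belong to MOC1 females.

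Alk averaged 4.21 ± 2.77 CPM over the 6 MOC1 libraries and 2.96 ± 2.08 CPM over the 5 sham libraries (SD). The log2 difference was 0.66 ± 0.65 (95% interval -0.71 to 2.04) and was not called. It was 0.05 without MOC1 female 3 and 0.17 without the 3 libraries named above. Within the sexes the Alk difference was 1.55 ± 0.86 in females and -0.35 ± 0.92 in males. The interaction of Alk was 1.91 ± 1.25 (95% interval -0.72 to 4.53, adjusted p = 0.9999, edgeR), so the female and male values were not shown to differ. Its size rested largely on MOC1 female 3, without which it was 0.83 ± 1.15, and it was 1.05 ± 1.22 without the 3 libraries. The 2 sham males lay above the 3 sham females, yet over both arms the female minus male difference of Alk was -0.75 ± 0.65 (adjusted p = 1, edgeR). This sex term was -1.37 ± 0.565 without MOC1 female 3 and -1.50 ± 0.62 without the 3 libraries (adjusted p = 0.566, edgeR).

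Ltk, the closest relative of Alk, was hardly detected. It had 12 counts in all, of which 3 were in MOC1 female 1, 6 in sham female 1 and 3 in sham male 1, and 8 of 11 libraries held 0. The highest Ltk level was 0.367 CPM. Fitted without the low-count filter, the Ltk difference was -1.69 ± 2.17 (SE) on the log2 scale, an error larger than the value, and it was not called.

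Ptn, the most abundant of the 5 genes, stood lower with the tumour. In MOC1 females Ptn stood at 256, 188 and 130 CPM, and in MOC1 males at 178, 214 and 173 CPM. In sham females Ptn stood at 506, 438 and 398 CPM, and in sham males at 383 and 362 CPM. Every MOC1 library lay below every sham library, which was the case for 4.18% of all genes tested. Ptn averaged 190 ± 42.4 CPM over the 6 MOC1 libraries and 417 ± 56.9 CPM over the 5 sham libraries (SD), a log2 difference of -1.12 ± 0.13 (SE).

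Mdk moved the same way at a lower level. In MOC1 females Mdk stood at 6.22, 4.46 and 3.38 CPM, and in MOC1 males at 9.07, 9.79 and 4.34 CPM. In sham females Mdk stood at 15.1, 15.3 and 12.5 CPM, and in sham males at 14.1 and 17.9 CPM. The arms of Mdk did not overlap, and MOC1 male 3 lay with the MOC1 females rather than with the other MOC1 males. The log2 difference of Mdk was -1.36 ± 0.29 (SE), from a mean of 15.0 ± 1.97 CPM in sham (SD, n = 5) to 6.21 ± 2.67 CPM in MOC1 (SD, n = 6).

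Neither growth factor gave a sex difference that passed its test. The interaction was -0.24 ± 0.26 for Ptn (95% interval -0.78 to 0.30) and -0.56 ± 0.58 for Mdk (95% interval -1.79 to 0.66), each with an adjusted p of 0.9999 in edgeR. Without the 3 libraries that stand apart the interaction was 0.17 ± 0.18 for Ptn and -0.14 ± 0.55 for Mdk. The Ptn difference was -1.22 ± 0.17 in females and -0.98 ± 0.19 in males. The Mdk difference was -1.61 ± 0.40 in females and -1.05 ± 0.42 in males. Over both arms the female minus male difference was 0.13 ± 0.13 for Ptn and -0.47 ± 0.29 for Mdk (adjusted p = 1 for both, edgeR). Without the 3 libraries this was 0.26 ± 0.09 for Ptn (adjusted p = 0.439, edgeR) and -0.26 ± 0.27 for Mdk (adjusted p = 0.924, edgeR).

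The 2 growth factors were lower in the arm with the lower satellite glia markers, whereas Alkal2 was higher there. Ptn had 386 to 445 counts per 10000 satellite glia marker counts in MOC1 libraries and 381 to 590 in sham libraries, so this ratio overlapped between the arms. Mdk had 10.04 to 20.5 counts per 10000 satellite glia marker counts in MOC1 and 13.9 to 18.9 in sham. This overlap came from MOC1 male 1 (20.5) and MOC1 male 2 (19.1) only. The other MOC1 libraries lay at 10.04 to 10.8, below every sham library. Against the pan-neuronal markers Ptn stayed apart, with 81.7 to 164 counts per 10000 in MOC1 and 276 to 446 in sham. With the satellite glia level as a covariate the log2 difference was -0.10 ± 0.26 for Ptn and 0.00029 ± 0.23 for Mdk, in the fit that called no gene. With libraries scaled to the satellite glia list the difference was -0.07 ± 0.15 for Ptn, -0.32 ± 0.34 for Mdk and 3.13 ± 0.25 for Alkal2. That scaling moved the median of all genes from -0.03 to 1.06, and 10013 of 16817 genes were called higher. These 3 values are thus shifted upward together with most genes. The glia marker sums of the arms did not overlap, so glia level and arm cannot be told apart.

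**Figure D2:**
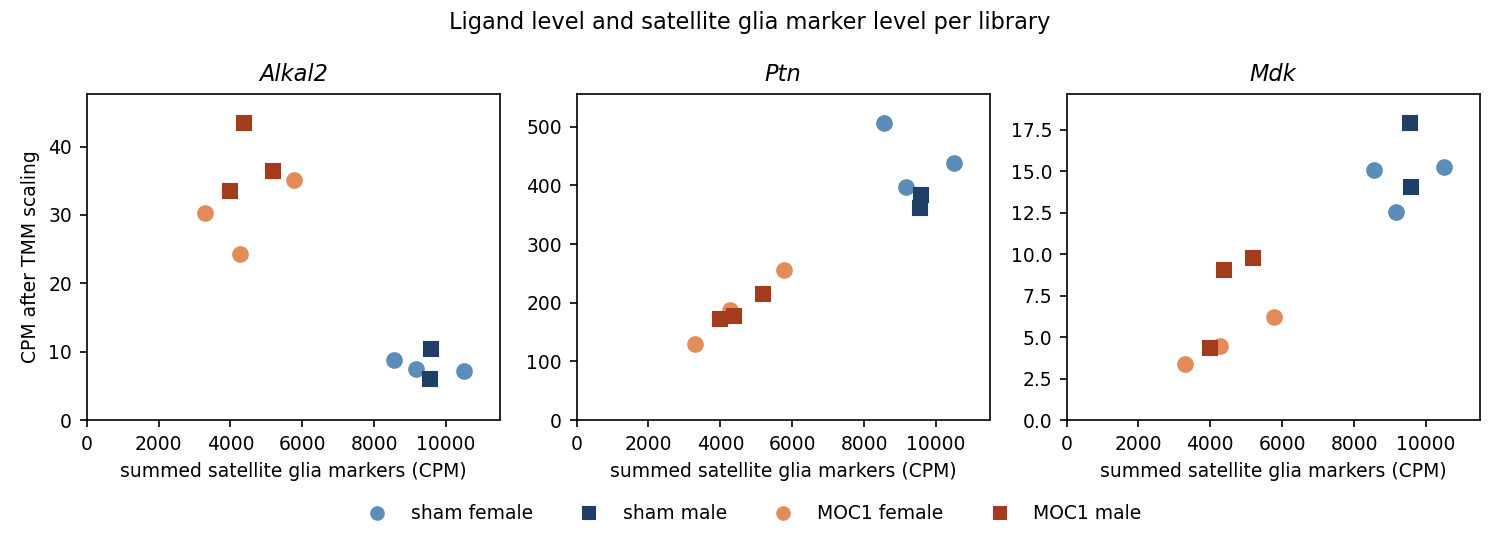
CPM after TMM scaling of Alkal2, Ptn and Mdk (y axes, from 0) against the summed CPM of 12 satellite glia markers (x axis) in each of the 11 libraries, with circles for females and squares for males. MOC1 libraries lie between 3307 and 5774 CPM of glia markers and sham libraries between 8553 and 10510 CPM, and Ptn and Mdk are low where the glia markers are low while Alkal2 is high there.

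**Figure D3:**
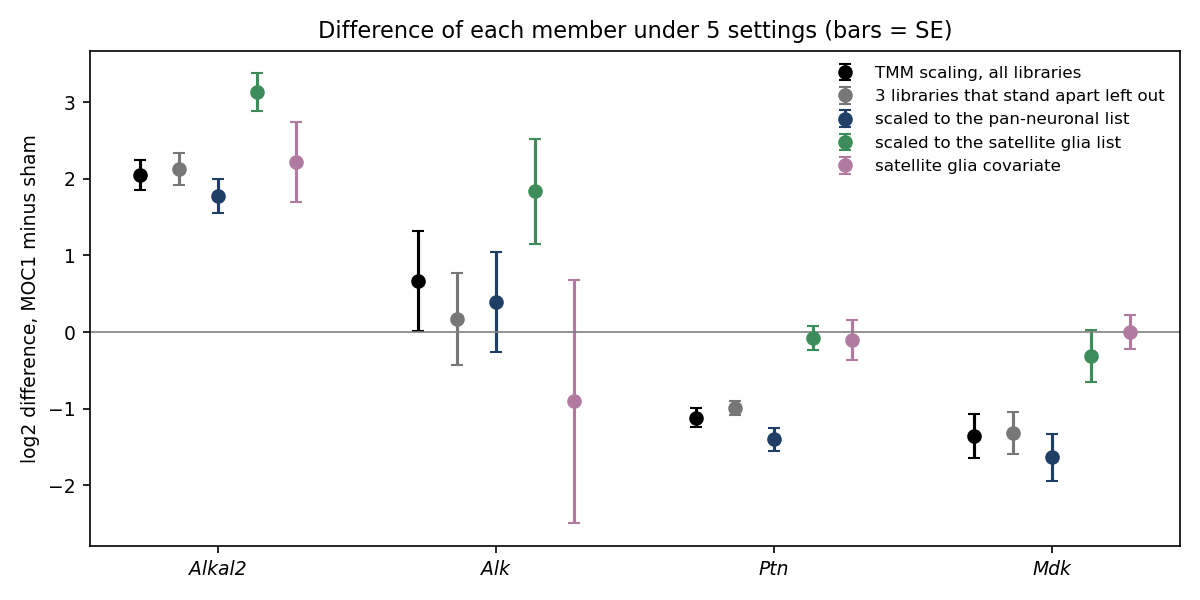
Log2 difference between MOC1 and sham (y axis, bars are SE) of Alkal2, Alk, Ptn and Mdk under TMM scaling and 4 other settings. Alkal2 lies between 1.78 and 3.13 in all 5, Ptn and Mdk lie near 0 once the satellite glia level is the yardstick or a covariate, and Alk has wide errors throughout. With the satellite glia list as the yardstick the median of all genes is 1.06.

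The order of the genes by level was compared per kilobase of merged exons. In sham libraries Ptn stood at 122 ± 16.6 CPM per kilobase, Mdk at 11.3 ± 1.49, Alkal2 at 5.28 ± 1.13, Alk at 0.381 ± 0.269 and Ltk at 0.0311 ± 0.0460 (SD, n = 5). In MOC1 libraries Ptn stood at 55.3 ± 12.3, Alkal2 at 22.4 ± 4.24, Mdk at 4.69 ± 2.01, Alk at 0.543 ± 0.358 and Ltk at 0.0129 ± 0.0316 CPM per kilobase (SD, n = 6). Alkal2 and Mdk thus stood in opposite order in the 2 arms, and their ranges did not overlap in either arm. Per kilobase, Mdk was 1.54 to 3.40 times Alkal2 in sham libraries and 0.128 to 0.306 times Alkal2 in MOC1 libraries. The ranges of Alk and Ltk overlapped in sham libraries.

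Among the 3 detected ligand genes, Alkal2 made up 3.24% to 5.35% of the counts per kilobase in sham libraries and 21.7% to 33.1% in MOC1 libraries. Alkal2 was chosen for its higher level in MOC1. Its larger share there, like its changed order against Mdk, follows in part from that choice. Ptn remained the largest of the 3 in each of the 11 libraries. Per kilobase, Ptn exceeded Alkal2 by 16.1 to 26.9 times in sham and by 1.80 to 3.41 times in MOC1 libraries. Alkal2 exceeded its receptor Alk per kilobase in all 11 libraries, by 5.64 to 58.9 times in sham and 17.3 to 188 times in MOC1, where Alk had 10 to 122 counts per library.

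Of 15 further receptors and co-receptors of pleiotrophin and midkine, 14 were tested, and 9 were lower and 0 higher in MOC1. That is 64.3% called, against 6.62% of all genes tested, with a median log2 difference of -0.84 against -0.03 for all genes. This list and those that follow were drawn up with earlier results of these data known. Their shares and p-values are therefore descriptions and not independent tests. Ptprz1, the receptor phosphatase bound by both factors, fell from 601 ± 92.5 to 288 ± 59.0 CPM (log2 -1.04 ± 0.12, adjusted p = 1.86e-05, edgeR). Among the syndecans, heparan sulfate proteoglycans of the cell surface, Sdc3 fell by 0.88 ± 0.09, Sdc4 by 1.44 ± 0.18 and Sdc2 by 0.90 ± 0.19. Sdc1 went the other way, from 29.8 ± 6.72 to 43.7 ± 8.94 CPM (log2 0.54 ± 0.17), and was not called. The integrin subunit gene Itgb3 fell by 1.54 ± 0.15 and the receptor gene Notch2 by 1.02 ± 0.19. Itgb1 (-0.05 ± 0.07) and Ncl (0.05 ± 0.08), which encodes nucleolin, were not called. The 9 genes that fell were low in the arm with the lower satellite glia markers, and the part of the glia level was not tested. With the satellite glia list as the yardstick the median of the receptor list was 0.24, with 6 genes higher and 1 lower. That scaling moved the median of all genes to 1.06 and called 10013 of all 16817 genes higher. In that scaling Sdc3 (0.19 ± 0.15), Ptprz1 (0.02 ± 0.15), Notch2 (0.03 ± 0.22) and Sdc2 (0.16 ± 0.20) were not called. Itgb3 (-0.46 ± 0.19) was still called lower, and Sdc4 (-0.40 ± 0.18) was not called. With the glia covariate the median was -0.16.

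The 43 adaptors, kinases and phosphatases that act after ALK were close to the background. All 43 were tested, and 2 were higher and 0 lower in MOC1. That is 4.65% called, against 6.62% of all genes tested called and 2.34% called higher. The median log2 difference was 0.06, against -0.03 for all genes. Shc2, a neuronal SHC adaptor, rose from 141 ± 10.8 to 185 ± 25.5 CPM (log2 0.40 ± 0.10, adjusted p = 0.0138, edgeR). Stat3, a transcription factor downstream of ALK and of cytokine receptors, rose from 478 ± 30.7 to 592 ± 54.3 CPM (log2 0.30 ± 0.07, adjusted p = 0.0151, edgeR). Mapk3, which encodes the kinase ERK1, stood at 0.12 ± 0.07 and Pik3r1, a PI3K subunit, at 0.04 ± 0.07, and neither was called. Scaling to the pan-neuronal list moved the median of all genes to -0.30. Shc2 (0.13) and Stat3 (0.02) were then no longer called, and the list had 0 genes higher and 6 lower. Of all 16817 genes, 27 were called higher and 2011 lower in that scaling. Scaled to the satellite glia list, 41 of the 43 were called higher and 0 lower (median 1.17, beside 1.06 for all genes). Of all 16817 genes, 10013 were called higher and 53 lower in that scaling. With the glia covariate the median was -0.13, and Shc2 (-0.15 ± 0.24) and Stat3 (-0.03 ± 0.19) stood below 0. Stat3 was also not called without sham male 3 (log2 0.29).

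Of 21 transcripts that follow RAS-MAPK activity, all tested, 5 were lower and 0 higher in MOC1, and the median log2 difference was -0.59. That is 23.8% called, against 6.62% of all genes tested called and 4.28% called lower. Since this list, too, was drawn up with earlier results known, the share is a description. Scaled to the pan-neuronal list, 10 of the 21 were lower and 0 higher (median -0.89). That scaling called 2011 of all 16817 genes lower and moved the median of all genes to -0.30. The immediate-early transcription factor gene Egr1 fell from 862 ± 260 to 312 ± 61.7 CPM (log2 -1.45 ± 0.16, adjusted p = 1.50e-05, edgeR). Phlda1 (-1.64 ± 0.17), the cyclin gene Ccnd1 (-1.56 ± 0.20) and the MAP kinase phosphatase genes Dusp4 (-1.62 ± 0.27) and Dusp6 (-0.68 ± 0.17) fell as well. The MAPK inhibitor genes Spred1 (-0.14 ± 0.09) and Spred2 (0.08 ± 0.13) were not called. With the satellite glia list as the yardstick the median was 0.50, with 9 higher and 2 lower, and Dusp6 stood at 0.37. The median of all genes was 1.06 in that scaling, with 10013 of 16817 called higher, so the list lay below the typical gene there. With the glia covariate, where no gene of the whole table was called, the median was -0.54. Glia level and arm cannot be told apart in that fit, so nothing is read from this median. Without the 3 libraries that stand apart the median was -0.26, with 6 of 20 lower and 0 higher. Satellite glia markers were lower in the same arm.

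**Figure D4:**
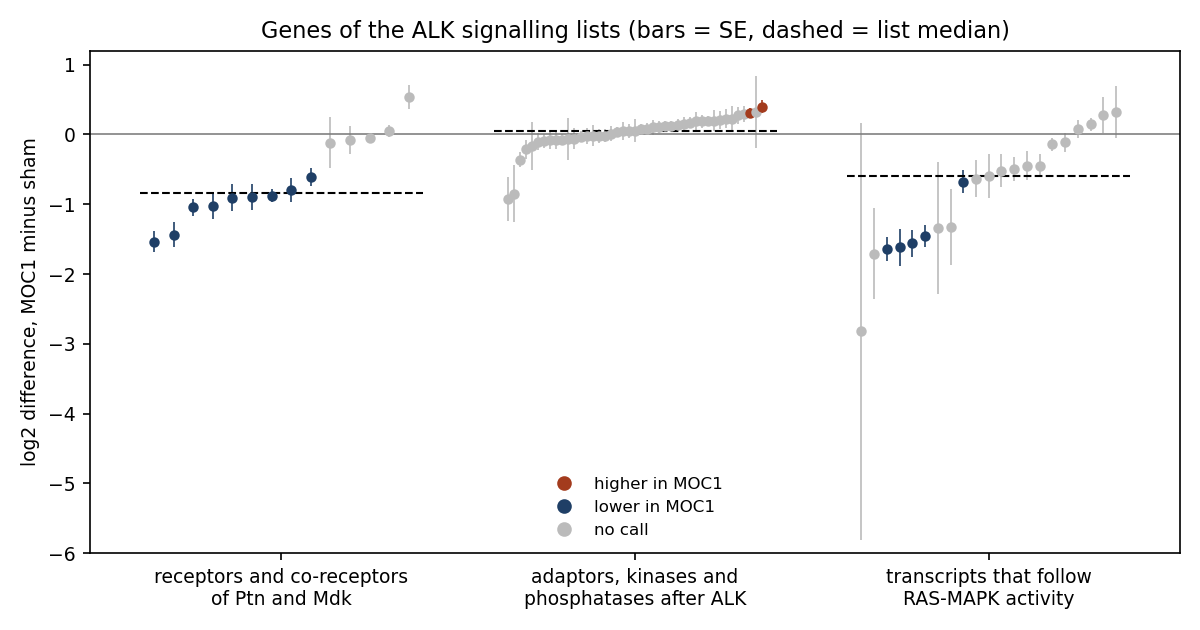
Log2 difference between MOC1 and sham (y axis, bars are SE) of each tested gene in the 3 ALK signalling lists (x axis), ordered by value, with dashed lines at the list medians of -0.84, 0.06 and -0.59. Blue points passed the edgeR test as lower in MOC1 (9, 0 and 5 genes), red points as higher (0, 2 and 0 genes), and grey points did not pass.

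No tested neighbour of Alkal2 on chromosome 12 was called higher in MOC1. Within 500 kb of the gene the files list 23 other genes, of which 8 are protein-coding and 5 passed the filter. Of all genes tested, 2.34% were called higher and 4.28% lower, so 5 genes are too few to read anything from their calls. Acp1, which encodes a small protein tyrosine phosphatase and whose end overlaps that of Alkal2 on the other strand (30893326 to 30911589), averaged 29.4 ± 2.81 CPM over sham and 31.5 ± 6.97 CPM over MOC1 libraries (SD), a log2 difference of 0.11 ± 0.16. Counting was strand-specific, so reads of the 2 genes were counted apart. Sh3yl1 (0.15 ± 0.17), Tmem18 (0.19 ± 0.16) and Dld (-0.01 ± 0.09) were not called either. Lamb1, a laminin subunit gene 371380 bases away, was the 1 neighbour called, and it fell (-0.69 ± 0.10, adjusted p = 1.53e-04, edgeR). Lamb1 stood above 0 (0.40) when libraries were scaled to the satellite glia list, where the median of all genes was 1.06. Fam110c, Gm6993 and Slc26a3 had 0 counts in all 11 libraries.

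Genes with a pattern like that of Alkal2 were sought among 10918 protein-coding genes with a mean of at least 5 CPM, by Pearson's r of log2(CPM + 1). Over the 11 libraries the highest r belonged to Dnm3 (0.98), Fstl1 (0.97), Pappa (0.96), Cbfb (0.95) and Trpa1 (0.95). These 5 genes share the gap between the 2 arms with Alkal2. After the mean of each of the 4 groups had been subtracted, the highest r belonged to Lix1l (0.97), Ppil4 (0.95), Lrrc1 (0.92), Sh3tc2 (0.92) and Bdnf (0.92). No gene was on both lists, and Lix1l, Lrrc1 and Sh3tc2 had a negative r over the libraries (-0.65, -0.55 and -0.49). Bdnf, a neurotrophin gene, combined both patterns, with 0.95 over the libraries and 0.92 over the deviations, and stood 0.94 ± 0.13 higher in MOC1 on the log2 scale. Trpa1, by contrast, had 0.33 over the deviations, and Ptn and Mdk had 0.29 and 0.18. With 11 libraries in 4 groups, and many genes searched, these coefficients describe likeness only.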

How the data were processed

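Each file the authors deposited lists stranded raw read counts per gene for 1 library, in whole numbers without normalization. The submitters' processing notes name Trimmomatic 0.35, STAR 2.7.1a and RSEM, with the GRCm38 genome. No annotation release is stated. Multimapping and ambiguous reads were tallied apart from the genes. The 4 rows that name no gene held 18.7% to 21.5% of counts and were left out. Exon lengths came from GENCODE M21 (GRCm38), which matched 54349 of 55401 identifiers, all at the same position.

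The comparisons used edgeR 4.0.16 under R 4.3.3: filterByExpr, TMM scaling, and quasi-likelihood F tests of the tumour term in a model that also held sex, Benjamini-Hochberg adjustment over 16817 genes and a threshold of 0.05. A 4-group fit gave values within each sex and the interaction. SE is the log2 difference over the square root of F, and 95% intervals use the moderated degrees of freedom. Levels are CPM after TMM scaling, marker sums are CPM of all gene counts, and 3 counts set the limit for a count of 0. Alternatives included DESeq2 1.42.0. The fit was tested on simulated data.

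The members and gene lists were chosen with earlier results of these data known. Named genes are the members, Alkal1, up to 6 called and 2 abundant uncalled genes per list, the protein-coding neighbours, and the 5 genes most like Alkal2 by each measure. Sdc1 is named in addition, as a further syndecan of the receptor list. The adjusted p planned for the members other than Alkal2 in the MOC1 contrast is not printed, since the set was proposed on that contrast. No pair of libraries in a group agreed within sampling noise (chi-square per degree of freedom 13.9 to 42.4).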

Additional observations from a re-analysis of the deposited data

Results flagged for a closer look

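MOC1 female 1 had the 1 nonzero Ltk level of the 6 MOC1 libraries, at 0.278 CPM, and was flagged because it lay far from the others. It rests on 3 counts. No other level of the 5 genes was far from its arm by this measure. Chance alone meets it in about 1 of 20 groups of normally distributed values. That rate does not hold for Ltk, because an arm with 1 nonzero library is always flagged.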

How the results depend on the processing

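Over all settings run, the Alkal2 difference stayed higher in MOC1. It was 1.78 scaled to the pan-neuronal list, 3.13 scaled to the satellite glia list and 1.91 to 2.16 with 1 library left out. Alk ranged from 0.05 to 0.87 with 1 library left out, and was 1.84 under glia scaling and -0.91 with the glia covariate. Ptn (-1.24 to -0.997 with 1 library left out) and Mdk (-1.48 to -1.23) stood at -0.075 and -0.32 under glia scaling. That scaling moved the median of all genes to 1.06. With the glia covariate, where no gene was called, Alkal2 was 2.22, Ptn -0.10 and Mdk 0.00029. The cause was not tested. The interaction of Alk ran from 0.83 to 2.42 and that of Mdk from -0.85 to -0.36 with 1 library left out, and they were 1.05 and -0.14 without the 3 libraries that stand apart. The Ptn interaction was 0.17 without them, and that of Alkal2 ran from -0.72 to 0.077 with 1 library left out. Per kilobase of the longest transcript, Ptn stood at 74.3 in MOC1 and 163 in sham, and Mdk at 14.2 in sham.

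Of all genes, 394 were higher and 719 lower, so 35.4% of calls were higher. Pan-neuronal scaling gave 27 and 2011 (1.33% higher), glia scaling 10013 and 53 (99.5%), the glia covariate 0 and 0 in edgeR (1202 genes at an unadjusted p under 0.05), and DESeq2 648 and 908. With 1 library left out the counts were 250 to 427 higher and 559 to 740 lower. The ALK lists had 2 higher and 14 lower, against 0 and 26 (pan-neuronal), 56 and 3 (glia scaling), 0 and 0 (covariate, edgeR), and 1 to 3 and 14 to 16 with 1 library left out. Within 500 kb of Alkal2 the calls were 2, 5 and 0 in the same order of settings.

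Signs changed under glia scaling for Sdc3 (0.19), Ptprz1 (0.016), Notch2 (0.035), Sdc2 (0.16), Itgb1 (1.03), Dusp6 (0.37), Spred1 (0.95), Lamb1 (0.40) and Dld (1.07). They changed under pan-neuronal scaling for Ncl (-0.23), Mapk3 (-0.15), Pik3r1 (-0.24), Spred2 (-0.20), Tmem18 (-0.080), Acp1 (-0.17) and Sh3yl1 (-0.12). With the covariate they changed for Ptprz1 (0.0041), Notch2 (0.053), Itgb1 (0.074), Shc2 (-0.15), Stat3 (-0.028), Mapk3 (-0.021), Dusp6 (0.26), Spred1 (0.26), Spred2 (-0.20), Sh3yl1 (-0.27) and Dld (0.25), and without the 3 libraries for Itgb1 (0.030). With 1 library left out, Ncl ran from -0.0035 to 0.10, Pik3r1 from -0.0015 to 0.052, Spred2 from -0.030 to 0.17 and Dld from -0.055 to 0.024.

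Libraries with the same replicate number did not deviate together (correlations -0.0377 to 0.0179 over 5 pairs, 2 of 5 best with their own number), so they were not treated as pairs. With 5 pairs this check is weak and cannot exclude a pairing by number. A replicate block gave 324 genes higher and 712 lower, with Alkal2 at 2.06, Alk at 0.33, Ptn at -1.20 and Mdk at -1.52. Depth limits Alk to 10 to 122 counts per library, and the unfiltered Ltk difference has an SE of 2.17.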
